A study of Homo sapiens with 6 samples.

Results

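Histone chaperones are proteins that escort newly made histones to DNA, and histone supply factors govern how many histone transcripts a cell makes. The set described here holds 10 genes, chosen by name from the 58735 genes of the expression table. The chaperones are the chromatin assembly factor subunits CHAF1A and CHAF1B, the histone H3-H4 carriers ASF1A and ASF1B, the histone reservoir protein NASP, the CENP-A chaperone HJURP and the H3 variant chaperones DAXX and HIRA. The supply factors are NPAT and SLBP. The values came from RNA sequencing of A549, a cell line established from a human lung adenocarcinoma. One group was transfected with pcDNA3.1 without an insert, called the empty vector here, and the other with a ZBTB16 expression plasmid. The labels give the genotype of the first group as WT and of the second as ZBTB16 overexpression, and all cells came from the same line in F12K medium with serum. Each group had 3 libraries, numbered 1 to 3, and the labels do not say whether these were separate cultures, so p-values measure the spread between libraries, which may be technical. ZBTB16, also named PLZF, is a zinc finger transcription factor known mainly as a repressor, and the series title places it upstream of DNA replication and the cell cycle.

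In dividing cells new nucleosomes are needed behind every replication fork. NASP holds soluble H3-H4, ASF1 proteins hand it on, and the chromatin assembly factor, tied to the fork by the sliding clamp PCNA, places it on new DNA. HIRA and DAXX place a replacement form of H3 outside replication, and HJURP places the centromeric form CENP-A. NPAT switches on the clustered histone genes when cells enter S phase, and SLBP binds the stem-loop that ends their transcripts, which lack a poly(A) tail.

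The values were FPKM, reads scaled to gene length and library size. The libraries held 15478010 to 17319971 reads, recovered from the FPKM and the gene lengths. ZBTB16 had 0 reads in the 3 empty-vector libraries and 41881, 53108 and 50407 in the ZBTB16 libraries, so the targeted gene matched its labels. The extraction text of the labels names retinas. All 9 markers of the A549 epithelial list were tested, with summed FPKM of 4558 to 4768 with empty vector and 4458 to 4544 with ZBTB16. The highest was ALDH1A1, at a mean of 1357 FPKM with empty vector and 1235 with ZBTB16. EPCAM was the lowest, at 1.26 and 1.24 FPKM. The 6 retina markers summed to at most 0.0354 FPKM in any library, with CRX and RPE65 among those at 0 in all. Immune markers summed to 3.21 to 3.79 FPKM with empty vector and 3.26 to 3.53 with ZBTB16, with CD3E at 0, and CD14 made up nearly all of it. Fibroblast and endothelial markers summed to 2.26 to 2.39 and 2.12 to 2.39 FPKM, with COL1A2 at 0. COL1A1 made up nearly all of that sum, at a mean of 2.06 FPKM with empty vector and 2.01 with ZBTB16.

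Promoter stretches of 3 members are shown because their transcripts stood at the extremes of the comparison: CHAF1A had the smallest p, HJURP passed in 1 model, and ASF1A had the fold change closest to 0. The letters are from RefSeq on GRCh38.p14, read 5′ to 3′ along the gene, and leave out bases that GENCODE 29 annotates as exons of protein-coding genes. Capitals mark CCAAT boxes on either strand, and in HJURP also the letters TTTGAA of a cell cycle genes homology region, an element known from genes of late cell cycle phases. In CHAF1A 2 CCAAT matches on opposite strands overlap close to the start.
CHAF1A promoter, chr19:4402390-4402639, plus strand: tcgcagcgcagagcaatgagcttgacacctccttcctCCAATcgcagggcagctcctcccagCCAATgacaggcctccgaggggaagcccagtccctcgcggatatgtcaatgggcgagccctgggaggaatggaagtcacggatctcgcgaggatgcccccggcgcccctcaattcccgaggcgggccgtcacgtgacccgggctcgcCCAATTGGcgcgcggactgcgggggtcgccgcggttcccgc
HJURP promoter, chr2:233854567-233854785, minus strand: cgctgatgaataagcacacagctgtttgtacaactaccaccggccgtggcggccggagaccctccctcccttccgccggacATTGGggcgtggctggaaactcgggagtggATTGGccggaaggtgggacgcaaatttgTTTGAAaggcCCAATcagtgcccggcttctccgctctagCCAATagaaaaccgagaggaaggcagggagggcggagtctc
ASF1A promoter, chr6:118893902-118894026, plus strand: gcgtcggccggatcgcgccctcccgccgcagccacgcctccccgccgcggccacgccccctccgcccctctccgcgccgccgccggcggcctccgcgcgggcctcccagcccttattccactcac

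Of the 10 genes, 9 had an entry in the promoter table, which covers 250 bases before and 50 bases after each start, and DAXX had none. CCAAT, on either strand, was present in 6 of the 9 windows and in 34.6% of all 35116 promoters. ASF1A is among the 6, with its match from position 16, counted from 1 at the start, outside the stretch shown. The homology region letters TTTGAA or TTCGAA, on either strand, were present in ASF1B and HJURP, 2 of the 9, and in 16.4% of all promoters. For the E2F site the letters TTTCCCGC, TTTCGCGC, TTTGCCGC and TTTGGCGC were searched on both strands. They were present in HIRA alone of the 9, and in 3.31% of all promoters. The starts are those of RefSeq and can differ from the gene bounds given below. The HIRA window, 19431684 to 19431983 on chromosome 22, lies inside the bounds given for that gene. A match describes the letters in the window and is not evidence of binding.

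None of the 10 transcripts passed the test over all genes, and 5 of them lay lower in every ZBTB16 library than in any empty-vector library. These 5 were CHAF1A, CHAF1B, ASF1B, NASP and HJURP, with mean FPKM 10.0% to 16.7% below the empty vector. DAXX alone had a positive fold change, 8.52% above the empty vector, also with separate groups. The groups of ASF1A, HIRA, NPAT and SLBP overlapped. Groups lay apart in the lower direction in 8.1% of the 12499 genes tested and in the higher direction in 8.12%. All 10 genes passed the filter of a mean FPKM of at least 1. Of the 10 fold changes 9 were negative, as were 51.5% of all tested. The median log2 fold change was -0.14 over the 10 genes and -0.0031 over all genes tested.

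In limma on log2(FPKM + 1) with Benjamini-Hochberg adjustment over the 12499 genes, 0 of the 10 were called at an adjusted p under 0.05, against 0.072% of all genes. At an unadjusted p under 0.05 the same 5 of the 10 were lower and 0 higher, where the shares over all genes were 5.17% lower and 5.08% higher. In limma voom on the recovered reads 1 of the 10 was called, HJURP as lower, where 0.832% of all genes were called lower. The exact two-sided permutation test cannot go below 0.1 with 3 libraries against 3, and it gave 0.1 for each of the 6 genes whose groups lay apart.

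**Figure D1:**
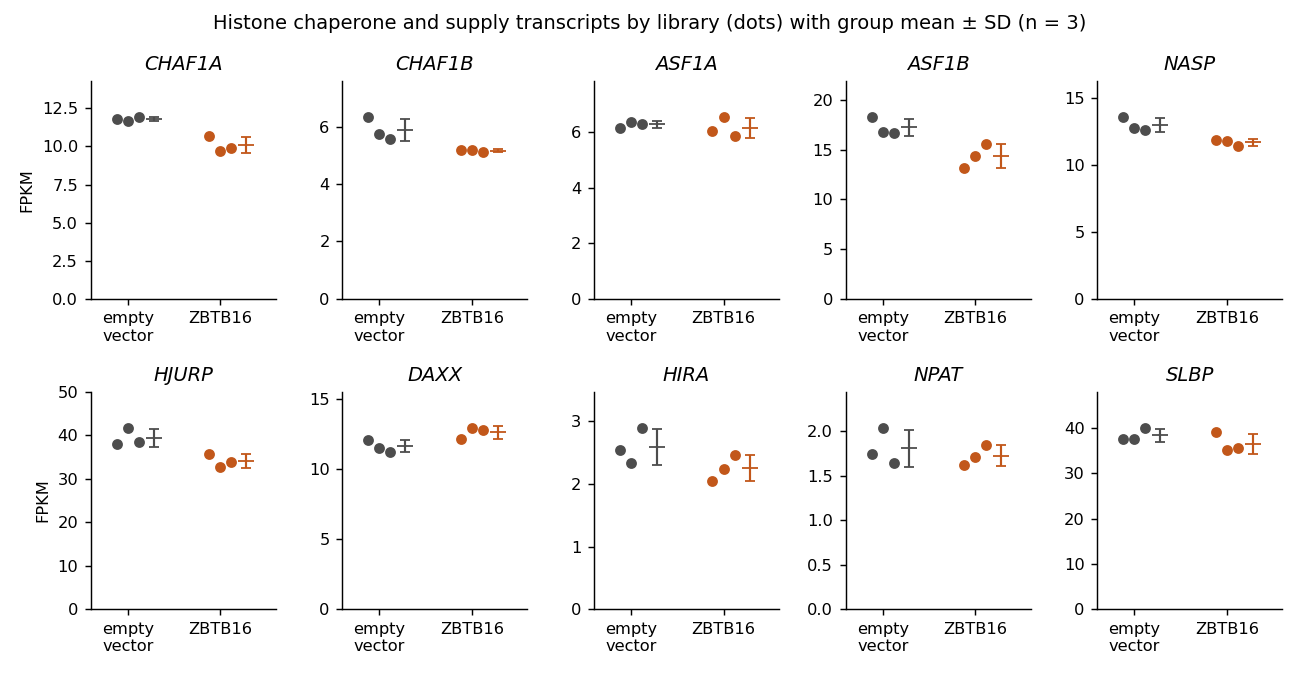
FPKM of each of the 10 transcripts (vertical axes, from 0, a separate scale per gene) in the 3 empty-vector and 3 ZBTB16 libraries; dots are libraries, the bar beside them is the mean ± SD (n = 3). The ZBTB16 dots lie below all empty-vector dots for CHAF1A, CHAF1B, ASF1B, NASP and HJURP, and above them for DAXX. The ranges of the groups overlap for ASF1A, HIRA, NPAT and SLBP.

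CHAF1A, the large subunit of the chromatin assembly factor, which carries its contact to PCNA, lies on the plus strand of chromosome 19 at 4402662 to 4445018 (hg38). It stood at 11.8, 11.7 and 11.9 FPKM in the empty-vector libraries and at 10.7, 9.70 and 9.90 in the ZBTB16 libraries. Every ZBTB16 library was below every empty-vector library, and the empty-vector libraries differed little among themselves. The group means were 11.8 ± 0.123 and 10.1 ± 0.508 FPKM (SD, n = 3 each). This gave a log2 fold change of -0.21 (SE 0.051, 95% interval -0.32 to -0.090), and limma's adjusted p was 0.180. CHAF1A ranked 218th by p among the genes tested, the first of the 10. In voom its log2 fold change was -0.23 with a limma adjusted p of 0.0673.

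CHAF1B, the middle subunit of the same complex (chromosome 21, 36385378 to 36419015, plus strand), stood at 6.34, 5.75 and 5.60 FPKM with empty vector. With ZBTB16 it stood at 5.19, 5.21 and 5.13 FPKM, all below the lowest empty-vector value. The spread was wider in the empty-vector group (SD 0.394) than in the ZBTB16 group (SD 0.0438), and empty-vector replicate 1 was the highest. Its log2 fold change was -0.16 (SE 0.059, limma adjusted p = 0.395). Without empty-vector replicate 1 it was -0.11 (limma adjusted p = 0.56). The FPKM of CHAF1B per CHAF1A was 0.538, 0.493 and 0.470 with empty vector and 0.486, 0.537 and 0.518 with ZBTB16. That ratio overlapped between groups, so no shift between the subunits was detectable (difference of log2 ratio 0.05, exact two-sided permutation p = 0.5).

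ASF1A and ASF1B are paralogs that pass H3-H4 to the chromatin assembly factor or to HIRA, and ASF1B is the one known to follow cell proliferation. ASF1B (chromosome 19, 14119509 to 14136956, minus strand) stood at 18.3, 16.8 and 16.7 FPKM with empty vector and at 13.2, 14.3 and 15.6 with ZBTB16. The groups lay apart, with ZBTB16 replicate 3 nearest to the empty vector. Means of 17.3 ± 0.866 and 14.4 ± 1.22 FPKM (SD, n = 3 each) gave a difference of -16.7%, the largest in size of the 10. ASF1B had a log2 fold change of -0.25 (SE 0.067, 95% interval -0.40 to -0.097). Its limma adjusted p was 0.213 on log2 FPKM and 0.0663 with voom.

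ASF1A (chromosome 6, 118894220 to 118909167, plus strand) stood at 6.15, 6.38 and 6.30 FPKM with empty vector and at 6.05, 6.53 and 5.84 with ZBTB16. The ZBTB16 libraries held both its highest and its lowest value. The log2 fold change was -0.03 (95% interval -0.16 to 0.10, limma adjusted p = 0.922), from 235 to 281 reads per library. Exons of MCM9 on the opposite strand cover 5.44% of its exon bases, and the labels do not state a strand setting for the counting. No 50-base stretch of ASF1B was shared with another gene's transcripts, so reads of that length would not mix the paralogs. ASF1B FPKM per ASF1A was 2.97, 2.64 and 2.65 with empty vector and 2.18, 2.20 and 2.67 with ZBTB16. ZBTB16 replicate 3 lay among the empty-vector libraries, and the groups overlapped. The difference of the log2 ratio, -0.22, did not pass (exact two-sided permutation p = 0.3, 0.75 adjusted over 5 ratios). A different response of the paralogs is thus not shown.

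NASP, which binds soluble H3-H4 and shields it from degradation (chromosome 1, 45583846 to 45618904, plus strand), stood at 13.6, 12.8 and 12.6 FPKM with empty vector. With ZBTB16 it stood at 11.9, 11.8 and 11.4 FPKM. The groups lay apart, with an SD of 0.496 FPKM with empty vector and 0.244 with ZBTB16 (n = 3 each). Its mean differed by -10.0%, or -0.14 as log2 fold change with an SE of 0.049 (limma adjusted p = 0.340), from 1520 to 1883 reads per library.

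HJURP, which recognises CENP-A and loads it at centromeres (chromosome 2, 233833416 to 233854566, minus strand), stood at 38.0, 41.7 and 38.5 FPKM with empty vector and at 35.8, 32.6 and 33.8 with ZBTB16. No ZBTB16 library reached the lowest empty-vector library. Means of 39.4 ± 2.01 and 34.1 ± 1.61 FPKM (SD, n = 3 each) gave a log2 fold change of -0.20 (SE 0.055, 95% interval -0.33 to -0.079). The limma adjusted p was 0.213 on FPKM and 0.0400 with voom on the recovered reads. Over the 16 alternative settings the adjusted p ran from 0.0400 to 0.595, and voom was the only setting in which any of the 10 genes passed. HJURP had the most reads of the set, 2113 to 2658 per library.

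**Figure D2:**
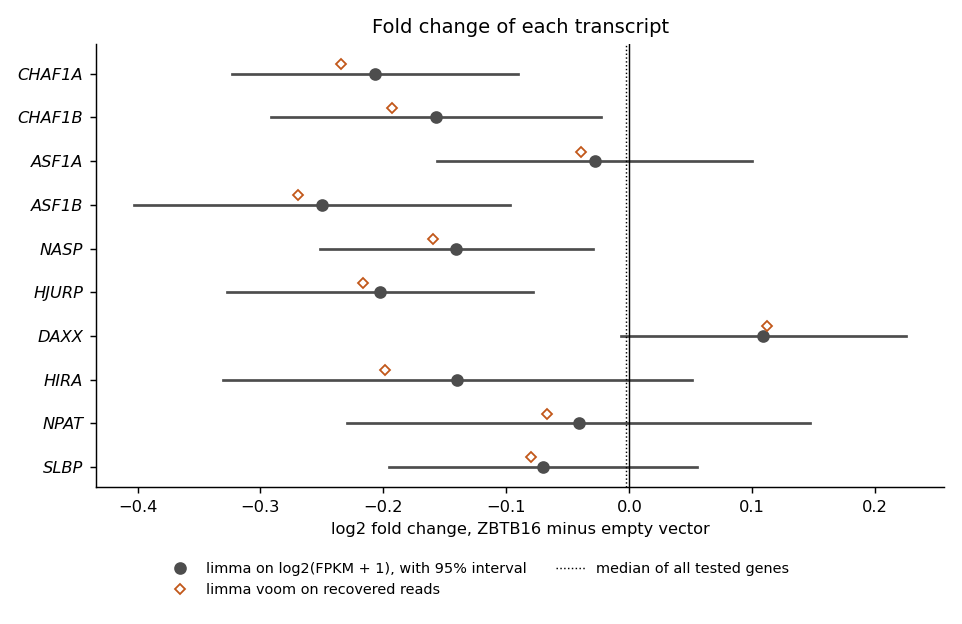
Log2 fold change of each transcript (horizontal axis, ZBTB16 minus empty vector) from limma on log2(FPKM + 1), with its 95% interval as a line, and from limma voom on recovered reads as an open diamond. The intervals of CHAF1A, CHAF1B, ASF1B, NASP and HJURP lie below 0, that of DAXX reaches from -0.0069 to 0.22, and the dotted line marks the median of all tested genes at -0.0031.

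DAXX works with ATRX to place replacement H3 at repeats and telomeres and is known also as a regulator of cell death and transcription. The gene lies on chromosome 6 at 33318558 to 33323016, minus strand. It stood at 12.1, 11.5 and 11.3 FPKM with empty vector and at 12.1, 13.0 and 12.8 with ZBTB16. The groups lay apart by less than a rounding step, since the highest empty-vector value, 12.131 FPKM, was just under the lowest ZBTB16 value, 12.137. DAXX had a log2 fold change of 0.11 (SE 0.051, 95% interval -0.0069 to 0.22) at a limma adjusted p of 0.523. The gene AL662820.1, annotated on the same strand over 14.3% of the DAXX exon bases, was listed at 0 FPKM in all libraries. The HJURP to DAXX ratio of FPKM was 3.13, 3.61 and 3.42 with empty vector and 2.95, 2.52 and 2.63 with ZBTB16. Of the 5 ratios computed this was the only one whose groups lay apart, with a log2 difference of -0.31. Because HJURP lay apart and lower and DAXX apart and higher, this ratio had to lie apart and is not a separate result. Its exact two-sided permutation p of 0.1 is the smallest possible and was 0.5 adjusted over the 5.

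HIRA, the scaffold of the complex that places replacement H3 at active genes (chromosome 22, 19330698 to 19447450, minus strand), stood at 2.54, 2.33 and 2.89 FPKM with empty vector and 2.05, 2.25 and 2.47 with ZBTB16. The groups overlapped. HIRA had a log2 fold change of -0.14 with an SE of 0.084 and a 95% interval from -0.33 to 0.051, and a limma adjusted p of 0.659. The gene C22orf39 on the same strand covers 66.5% of the HIRA exon bases, so its value is uncertain, since the authors' counting could split or drop the shared reads. With 136 reads in the lowest library, counting alone gives an SD of 8.57% there. Without empty-vector replicate 3 the log2 fold change was -0.080 (limma adjusted p = 0.917). CHAF1A FPKM per HIRA overlapped between groups, at 4.12 to 5.01 with empty vector and 4.01 to 5.21 with ZBTB16 (difference of log2 ratio -0.07, exact two-sided permutation p = 0.6).

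**Figure D3:**
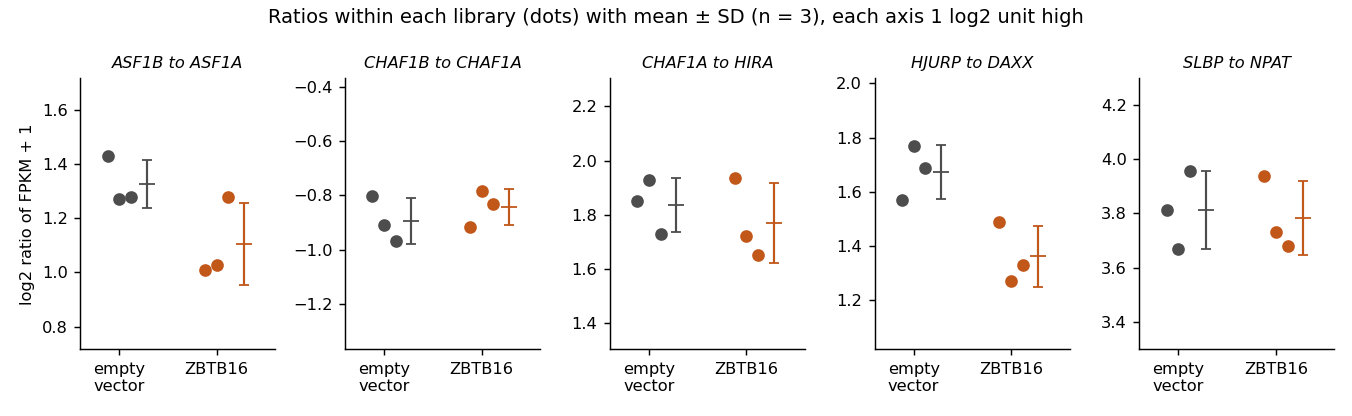
Log2 ratio of FPKM + 1 between pairs of transcripts within each library (vertical axes, each 1 log2 unit high), with empty-vector and ZBTB16 libraries as dots and the mean ± SD (n = 3) beside them. The groups lie apart for HJURP to DAXX and overlap for the other 4 pairs.

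NPAT, the coactivator of the clustered histone genes and a substrate of cyclin E with CDK2, stood at 1.75, 2.04 and 1.64 FPKM with empty vector and at 1.62, 1.72 and 1.84 with ZBTB16. The groups overlapped, with empty-vector replicate 2 the highest and ZBTB16 replicate 1 the lowest. The log2 fold change was -0.04 (95% interval -0.23 to 0.15, limma adjusted p = 0.922). The gene lies on chromosome 11 at 108157215 to 108222642, minus strand. Its start is 158 bases from that of ATM, which runs the other way, and 1.90% of its exon bases are shared with ATM exons. It had 188 to 256 reads per library.

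SLBP, the stem-loop binding protein that matures and stabilises replication-dependent histone transcripts (chromosome 4, 1692800 to 1712555, minus strand), stood at 37.6, 37.6 and 40.0 FPKM with empty vector. It stood at 39.1, 35.1 and 35.5 FPKM with ZBTB16. The groups overlapped, since ZBTB16 replicate 1 lay above 2 of the empty-vector libraries. SLBP had a log2 fold change of -0.07 (95% interval -0.20 to 0.055, limma adjusted p = 0.762). Per NPAT, SLBP FPKM ran from 18.5 to 24.4 with empty vector and from 19.2 to 24.2 with ZBTB16.

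By level, which FPKM gives per gene length, HJURP and SLBP were the most abundant of the set in both groups and could not be ordered, since their libraries overlapped. ASF1B followed, then NASP, CHAF1A and DAXX near 12 FPKM, then ASF1A and CHAF1B near 6, HIRA and NPAT. With empty vector CHAF1A and DAXX overlapped and so did ASF1A and CHAF1B. With ZBTB16 neither of these pairs overlapped: DAXX at 12.1 to 13.0 FPKM stood above NASP and CHAF1A, and CHAF1B at 5.13 to 5.21 stood below ASF1A. HIRA and NPAT were the lowest in both groups.

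Genes that act with the 10 were read from the same fit, and 0 of them were called by limma on log2 FPKM. Of the 10 tested partners of replication-coupled deposition, 9 were negative, with a median log2 fold change of -0.11, and 7 lay apart and lower. At an unadjusted p under 0.05 in limma 4 of them were lower, and voom called 1, PCNA. PCNA, the clamp that recruits the chromatin assembly factor, stood at 236 ± 6.10 and 207 ± 9.24 FPKM (SD, n = 3 each, limma adjusted p = 0.194). TONSL, a reader of new H4 at forks, stood at 8.30 and 7.12 FPKM and DNAJC9, an H3-H4 co-chaperone, at 12.1 and 11.0. Partners of replication-independent deposition had a median of -0.06 over 5 tested genes, of which 1 lay apart and lower, also the only one lower at an unadjusted p under 0.05 in limma; voom called 0. With a library left out this median ran from -0.11 without ZBTB16 replicate 3 to -0.009 without empty-vector replicate 2. That gene was DEK, a chromatin protein described as a chaperone of replacement H3, at 30.1 and 27.1 FPKM (limma adjusted p = 0.371). ATRX, the partner of DAXX, stood at 4.28 and 4.07 FPKM, and its groups overlapped. CABIN1 and UBN2, subunits of the HIRA complex, stood at 8.68 and 8.10 FPKM and at 1.31 and 1.43.

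Of the 5 tested partners in CENP-A loading, 4 were negative, with a median of -0.16. At an unadjusted p under 0.05 in limma 3 were lower, and voom called 1 at an adjusted p under 0.05. CENPA, the cargo of HJURP, stood at 14.7 ± 0.244 FPKM with empty vector and at 10.8 ± 1.02 with ZBTB16 (SD, n = 3 each), a log2 fold change of -0.41 with a limma adjusted p of 0.0834 and, with voom, of 0.00442. The Mis18 subunit OIP5, which helps prime the centromere for HJURP, stood at 7.61 and 6.60 FPKM. Its groups lay apart, whereas those of MIS18A, at 7.12 and 6.92 FPKM, overlapped. Among 11 tested general chaperones the median was -0.08, with 9 negative and 7 apart and lower. At an unadjusted p under 0.05 in limma 3 were lower, and voom called 1 at an adjusted p under 0.05. ANP32E, which removes H2A.Z from nucleosomes, stood at 24.2 and 20.7 FPKM (limma adjusted p = 0.152, with voom 0.0332). SSRP1, a FACT subunit, stood at 45.3 and 41.4 FPKM, and SET, an inhibitor of histone acetylation, at 94.9 and 88.0.

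For the 19 genes of histone transcript synthesis and processing the median was -0.02, with 11 negative and 8 positive. CDK2, the kinase that acts on NPAT, stood at 11.1 and 9.57 FPKM with separate groups (limma adjusted p = 0.270). SRRT, of the cap-binding complex pathway, stood at 29.3 and 27.0 FPKM and ERI1, an exonuclease of the histone stem-loop, at 5.85 and 5.29. These 3 had the smallest p of that list. In limma 1 of the 19 was lower at an unadjusted p under 0.05, and voom called 0.

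Histone genes were read from the same fit, and limma on log2 FPKM called 0 in either class. Of 11 tested replacement histone genes, 9 were negative, with a median of -0.13, and 7 lay apart and lower. The limma fit had 7 lower at an unadjusted p under 0.05, and voom called 3 lower. After CENPA the smallest p among them were those of the linker histone H1FX at 107 and 89.5 FPKM and of the damage-marking H2AFX at 117 and 96.4. Their limma adjusted p was 0.225 each, and with voom 0.0136 and 0.0119. Of the genes for replacement H3, H3F3A stood at 70.7 and 65.0 FPKM and H3F3B at 108 and 107. Replication-dependent histone genes were taken by name, as all protein-coding genes whose names start with HIST1H, HIST2H, HIST3H or HIST4H. They numbered 71, of which 20 passed the filter on low values, and 15 of these were positive, with a median of 0.20. The median over the 60 with any read was 0.04. The smallest p were those of HIST1H1C at 62.5 and 76.2 FPKM (limma adjusted p = 0.0992), HIST1H2BD at 15.9 and 20.5 (0.122) and HIST1H4H at 2.77 and 3.99 (0.179). At an unadjusted p under 0.05 in limma 8 of the 20 were higher and 1 lower. With voom 1 of the 20, HIST1H1C, was called higher. Of these 20 genes 7 lay apart and higher and 1 apart and lower. Of the 71 genes 11 were at 0 in all libraries. The labels name the library kit and state no poly(A) or rRNA selection, and whether these reads came from stem-loop or polyadenylated transcripts was not tested.

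**Figure D4:**
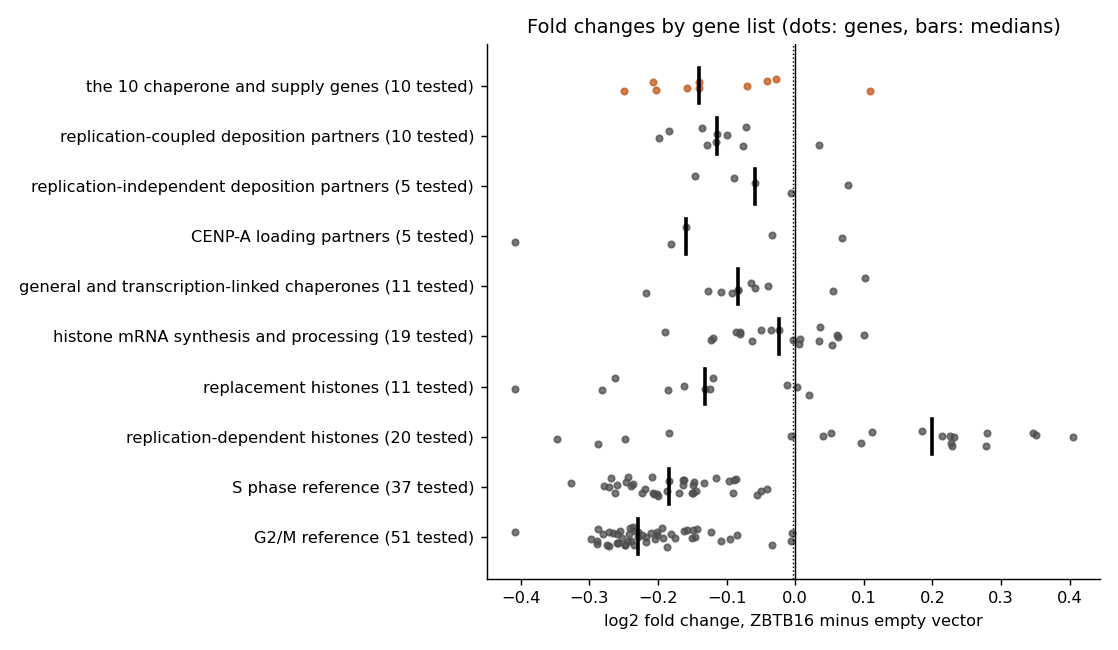
Log2 fold change (horizontal axis, ZBTB16 minus empty vector) of every tested gene in the 10 chaperone and supply genes and in 9 lists of related genes, with dots for genes and bars for medians; some genes are in more than 1 list. The median of the 10 genes is -0.14, beside -0.13 for replacement histones, -0.16 for CENP-A loading partners and -0.11 for replication-coupled partners, and the replication-dependent histones lie to the other side at 0.20.

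Transcripts that mark cell cycle phases were read in the same libraries. All 37 tested genes of an S phase list without the 10 had negative fold changes, with a median of -0.18, 31 of them apart and lower. Of the 37, 29 were lower at an unadjusted p under 0.05 in limma. Voom called 10 of them lower at an adjusted p under 0.05. Their summed FPKM was 736 to 752 with empty vector and 637 to 666 with ZBTB16, a difference of -12.7%. MCM4, TYMS and BLM had the smallest p there, at limma adjusted p of 0.0982, 0.108 and 0.116. All 51 genes of a G2/M list were negative as well, with a median of -0.23 and a summed FPKM 12.8% below the empty vector. In limma 43 of the 51 were lower at an unadjusted p under 0.05, and voom called 20; TOP2A and CDCA2 joined CENPA as those of smallest p. The summed FPKM of the 10 chaperone and supply genes differed by -8.99%, from 147 to 149 with empty vector to 132 to 138 with ZBTB16. The part of cell cycle composition in the values of the 10 was not tested. In bulk RNA, fewer cells in a phase and less of a transcript per cell cannot be told apart.

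The profiles most like that of CHAF1A over the 6 libraries, by mean absolute difference of log2(FPKM + 1) relative to the empty-vector mean, were those of MCM6, AURKB and OIP5, among 6689 protein-coding genes at a mean FPKM of 5 or more. Their differences were 0.022, 0.022 and 0.023. Nearest within the set was HJURP at 0.035. For ASF1A the nearest were TEX261, HNRNPK and INTS8, at 0.0081, 0.0086 and 0.0086, and within the set SLBP at 0.063.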

How the data were processed

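HISAT2 2.0.5 and hg38 are named per the submitters' processing notes. How reads were counted, with which strand setting and filters, is not given in the sources. The authors deposited FPKM for 58735 genes with gene length and position, per the file headers. All 58735 genes had the same position, strand and merged exon length in GENCODE 29. FPKM times gene length was a whole multiple of 1 step per library within 0.01 for 100% of values, so reads could be recovered. Library sizes implied by that step differed from the summed reads by -0.230% to 0.971%.

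The 12499 genes at a mean FPKM of 1 or more were tested with limma 3.58.1 (R 4.3.3) on log2(FPKM + 1), with a trended robust prior, no covariate and Benjamini-Hochberg adjustment, two-sided, at 0.05. Fold changes are on that scale and understate changes of low genes; percent differences are of FPKM. Ratios were tested with exact permutation in scipy 1.17.1. The alternatives were pseudocounts of 0.1 and 0.5, no filter, a minimum mean FPKM of 5, only protein-coding genes, median-ratio scaling, quantile normalization, a constant prior, limma voom on recovered reads, a replicate block and each library left out. Voom called 206 genes. Each library counted as 1 replicate. Within groups, libraries differed beyond counting noise (mean chi-square per gene 2.28 to 5.19), which cannot tell separate cultures from preparations of 1 culture. The fits were tested on simulated reads with a fixed spread for all genes and 200 genes changed. Limma recovered 14.3% of genes changed 1.25-fold and 100% of those changed 4-fold, and voom 38.8% and 100%. False calls numbered 17 with limma and 8 with voom, and 1 each with no change simulated. Small changes were thus mostly missed.

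The 10 genes and all lists were chosen with earlier results of these data known. All 10 are named; from each related list the 3 genes with the smallest p are named, and ZBTB16 checks the labels. Some genes that this rule names are left out. The 3 profiles most like those of CHAF1A and ASF1A are named too. ATRX, MIS18A, H3F3A, H3F3B, CD14, COL1A1, ALDH1A1 and EPCAM are further examples, named after their values were seen. Figures were drawn with matplotlib 3.10.9.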

Additional observations from a re-analysis of the deposited data

How the results depend on the processing

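Of the 10 genes, called members here, the count called stayed at 0 in every alternative but limma voom on recovered reads, where it was 1 (HJURP). The number of members with a negative fold change was 9 in the reported fit; leaving out a library gave 8 to 9, and a minimum mean FPKM of 5, under which HIRA and NPAT were not tested, gave 7. Members lower at an unadjusted p under 0.05 numbered 5, and 3 to 5 with a library left out, with 3 without empty-vector replicate 1 or ZBTB16 replicate 3. With a library left out the log2 fold change of ASF1A ran from -0.067 to 0.0019, reversed without ZBTB16 replicate 3, and that of NPAT from -0.084 to 0.017, reversed without empty-vector replicate 2. The difference of the SLBP to NPAT ratio ran from -0.11 to 0.043, reversed without empty-vector replicate 3 (0.043) or ZBTB16 replicate 3 (0.022); the cause was not tested. The other members and ratios kept their sign, but with a library left out HIRA ran from -0.19 to -0.080 (without empty-vector replicate 3), SLBP from -0.12 to -0.041 (the same library), the CHAF1A to HIRA ratio from -0.15 to -0.0081 (ZBTB16 replicate 3) and the CHAF1B to CHAF1A ratio from 0.011 (empty-vector replicate 3) to 0.095.

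Over the whole table the reported 8 higher and 1 lower calls became 44 and 31 with that minimum, 56 and 33 among protein-coding genes, 13 and 3 with quantile normalization, 102 and 104 with voom, and 1 and 0 with no filter or a constant prior. A pseudocount of 0.1 gave 2 lower calls. With a library left out the fit called 1 to 4 higher and 0 to 2 lower. The median of the 10 members moved from -0.14 to -0.17 with a pseudocount of 0.1, -0.16 with 0.5 and -0.18 with voom, and ran from -0.16 to -0.11 with a library left out. With voom the medians of replication-coupled partners, CENP-A partners, S phase and G2/M lists were -0.13, -0.19, -0.22 and -0.25, and the S phase median was -0.21 with a pseudocount of 0.1. With a library left out these ran from -0.13 to -0.089, -0.18 to -0.12, -0.20 to -0.16 and -0.22 to -0.21; for replication-independent partners from -0.11 to -0.009, and for general chaperones and histone transcript processing from -0.092 to -0.064 and -0.039 to -0.012. The median of replication-dependent histones was 0.040 with no filter.

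With the repeat number as a replicate block 0 members were called, and 12 genes were higher and 3 lower over the whole table. Same-numbered libraries had correlations of deviations of 0.0672, 0.0465 and -0.0435, so the numbers were not treated as pairs. HIRA, NPAT and ASF1A had the fewest reads of the 10; the part of depth in their overlap was not tested.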
